A study of Oryzias latipes with 2 samples.

Results

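The giant transcripts described here were the 272 lines of the deposited gene tables that hold 1 gene with 1 transcript of 6000 bp or more. They came from 20259 lines in all, of which 14813 had 1 transcript and at least 1 read, so that a length could be worked out. The giant lines thus made up 1.84% of the lines of known length. Lengths were not listed in the tables. Each was recovered from the read count and the RPKM (the read count divided by the length in kilobases and by the library total in units of 1000000 reads) of the same line, so the members were chosen by the same counts and RPKM values that give the levels. Levels by length are therefore given as descriptions with no test. All 272 giant lines had reads in both replicates, and both replicates gave the same length for each.

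RNA came from whole embryos of the medaka, Oryzias latipes, a freshwater fish common in laboratory work on development. The sample titles name ICab, a laboratory strain. The 2 replicates of the only group were pools of 60 stage 24 embryos, raised at 26 °C, freed of the chorion by hand and given no treatment. Nothing in the labels ties the pools to separate clutches or days, and their spread may be technical. The tables sum to 22661195 counted reads for replicate 1 and 23055861 for replicate 2.

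Some very long messenger RNAs encode very large proteins. In vertebrates these include titin and nebulin of the contractile unit of striated muscle, and dystrophin, which ties the muscle cytoskeleton to the membrane. Others are the heavy chains of the dynein motors, and giant cadherins and matrix proteins. Which of these genes the lines stand for is not known here, because the tables give Ensembl identifiers alone and 0 of the 272 matched a name in the gene list at hand. The 2 longest and the 2 most abundant lines are given by identifier, and others by their length. In whole embryos a low level from few expressing cells and a low level in many cells cannot be told apart.

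The lengths of the giant lines were mostly multiples of 3, as those of coding sequences are. This held for 257 of the 272 lengths (94.5%), against 77.8% of the 5151 lines of 1000 to 2000 bp. Over all lines of known length the share was 73.4%. By length it was 60.6% under 500 bp, 62.0% from 500 bp, 77.8% from 1000 bp, 85.0% from 2000 bp, 91.0% from 3000 bp, 92.8% from 4000 bp and 95.2% from 5000 bp. For most members the length may therefore be a coding length, but this was not checked against an annotation. The RPKM is a level per kilobase of that length. With a lower share in the shorter class, the levels of both classes may rest on unlike kinds of length. The lengths of the 53 lines from 10000 to 15000 bp were all multiples of 3. From 15000 bp the share was 88.9% of 9 lines, and the exception was the longest line, of 78425 bp.

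Most members lay within a narrow range of length, and a few were far longer. The median length was 7278 bp (interquartile range 6454 to 9479 bp), with 114 lines under 7000 bp, 57 from 7000 bp, 39 from 8000 bp, 53 from 10000 bp and 9 from 15000 bp. After the longest line, at 78425 bp, the next was at 22113 bp. None of the 272 identifiers stood alone as the gene of another line, and lines that join several genes were not searched for them. Shared length was seen for 54 members, which had the same length as at least 1 other giant line. With 114 lines under 7000 bp and 57 from 7000 bp, unrelated lines can also have the same length. How many would do so by chance was not worked out, so no reading is given to the count of 54. Whether any of these lines are copies that share reads was not tested. Just inside the limit stood 2 lines of 6015 bp, at 77.4 and 0.0220 mean RPKM, and a line of 6024 bp at 0.738. Just outside stood 2 lines of 5991 bp, at 5.68 and 12.5 mean RPKM, and a line of 5982 bp at 19.0.

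Most giant transcripts were present in the stage 24 embryo at moderate levels. In both replicates 196 of the 272 lines (72.1%) reached 1 RPKM, against 74.5% of the lines of 1000 to 2000 bp. The direction of this difference depended on the rule of detection: with at least 10 reads in each replicate, which is not per length, the shares were 96.7% of the giant lines and 84.1% of the lines of 1000 to 2000 bp. The median of the mean RPKM was 7.21 for the giant lines (interquartile range 0.712 to 19.0), against 8.75 for the lines of 1000 to 2000 bp (1.10 to 26.2). The giant lines had a median of 7.41 RPKM in replicate 1 and 6.88 RPKM in replicate 2, against 8.86 and 8.67 RPKM for the lines of 1000 to 2000 bp. These shares and medians cover lines with reads only. The 1551 lines with 1 transcript and no reads have no known length and could belong to either class. If they could be placed, the direction of these small differences might change. The fullest 2-fold range of the giant lines was 8 to 16 RPKM, with 50 lines, followed by 16 to 32 RPKM with 45.

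**Figure D1:**
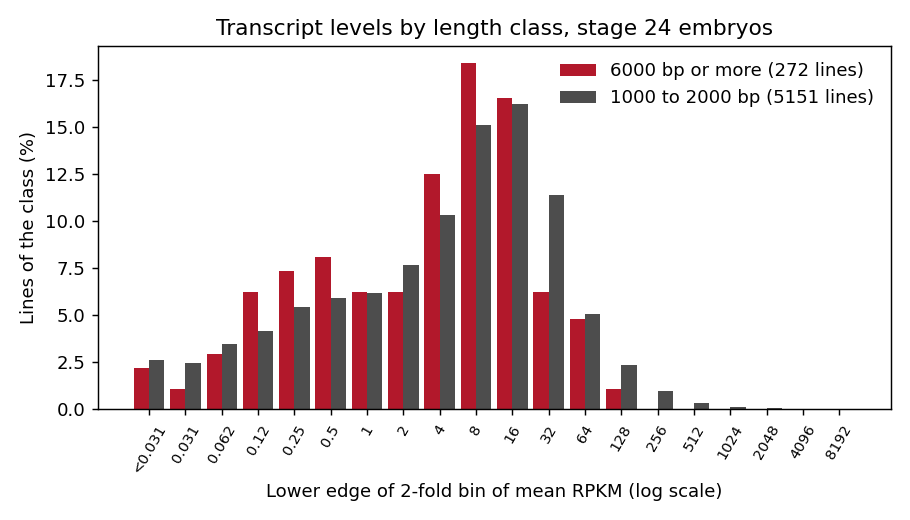
Share of the lines of each length class (y axis, percent) in 2-fold bins of mean RPKM (x axis, log scale), for the 272 giant lines and the 5151 lines of 1000 to 2000 bp. Both classes peaked between 8 and 32 RPKM, and no giant line lay at 256 RPKM or above.

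The distance between the classes was widest at the high end. Mean levels of 100 RPKM or more were reached by 4 giant lines (1.47%), against 284 lines of 1000 to 2000 bp (5.51%). The 90th percentile was 37.5 RPKM for giant lines, against 59.4 RPKM for lines of 1000 to 2000 bp, and the 99th percentile was 119 RPKM for giant lines, against 357 RPKM. The highest giant line stood at 239 RPKM, whereas the highest line of 1000 to 2000 bp stood at 10180 RPKM. The larger class has more chances of an extreme line, so the maxima are less comparable than the shares. From 32 to 64 RPKM the share was 6.25% of the giant lines, against 11.4% of the lines of 1000 to 2000 bp. From 64 to 128 RPKM the shares were close, at 4.78% of the giant lines and 5.05% of the lines of 1000 to 2000 bp.

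The high end was lower in the longer classes than in the shortest ones, with no steady order from 2000 bp on. The 95th percentile of mean RPKM was 353 for lines under 500 bp, 152 from 500 bp, 107 from 1000 bp, 74.9 from 2000 bp, 65.8 from 3000 bp, 70.6 from 4000 bp, 51.8 from 5000 bp and 68.2 for the giant lines. Medians over the same classes were 6.02, 9.18, 8.75, 9.73, 10.6, 10.1, 9.98 and 7.21 RPKM, so the giant lines and the lines under 500 bp had the lowest medians. The share at 1 RPKM in both replicates was 69.1% under 500 bp, between 74.5% and 79.6% in the 6 classes from 500 to 6000 bp, and 72.1% for the giant lines.

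**Figure D2:**
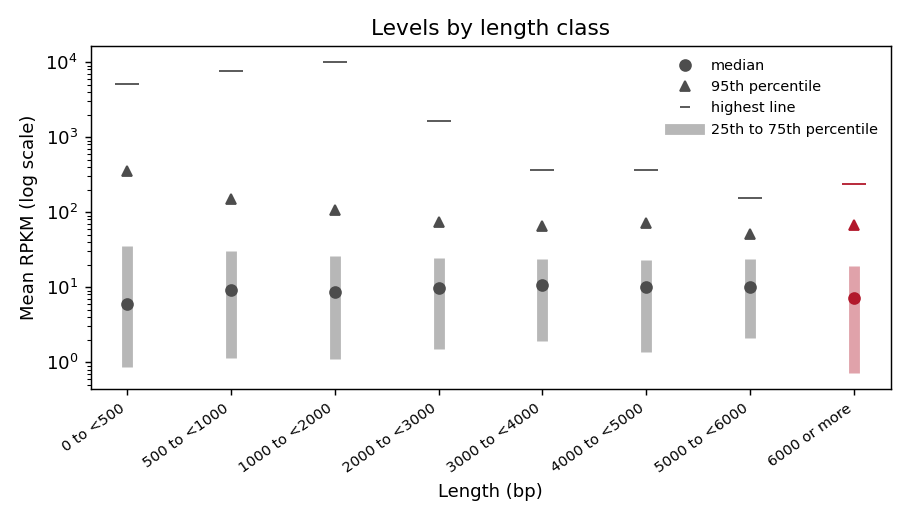
Mean RPKM (y axis, log scale) by length class (x axis, bp), with the median, the 25th to 75th percentile, the 95th percentile and the highest line, and the giant lines in red. The 95th percentile was 353 RPKM for the shortest class and 68.2 RPKM for the giant lines, while the medians stayed between 6.02 and 10.6 RPKM.

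Among the giant lines, level did not follow length. Spearman's rho of length and mean RPKM was -0.0039 over the 272 lines, a description across genes that share the same 2 libraries. The median was 7.39 RPKM from 6000 bp, 10.8 from 7000 bp, 7.04 from 8000 bp, 5.07 from 10000 bp and 8.47 over the 9 lines of 15000 bp or more. The share at 1 RPKM in both replicates was 68.4%, 80.7%, 71.8%, 67.9% and 88.9% in the same order. The interquartile range within each of these classes covered more than the distance between their medians.

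**Figure D3:**
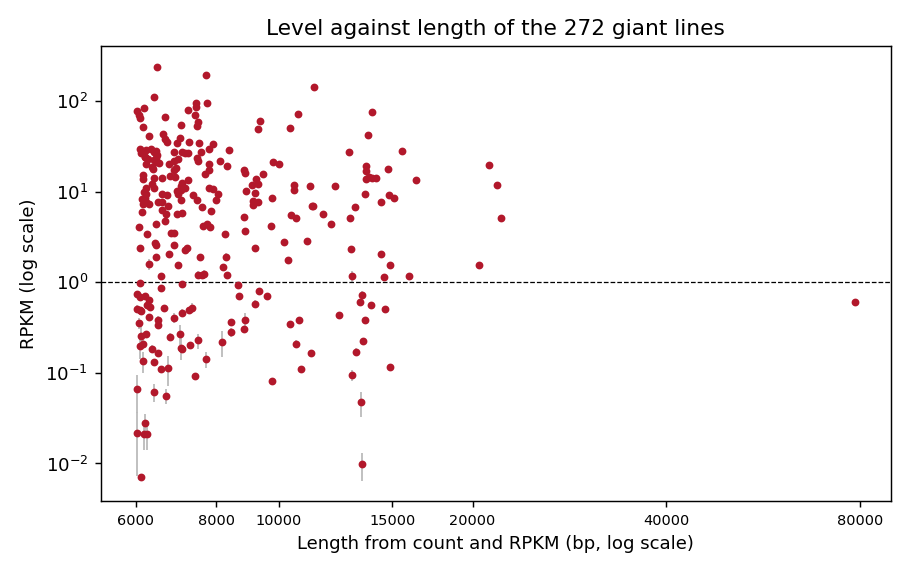
Mean RPKM (y axis, log scale) against length (x axis, bp, log scale) for the 272 giant lines, 1 point a line, with grey bars joining the replicates and a dashed line at 1 RPKM. Levels from below 0.1 to above 100 RPKM occurred between 6000 and 15000 bp, and the line of 78425 bp stood alone at 0.610 RPKM.

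The longest line, ENSORLG00000018144 with 78425 bp, was expressed at a low level per length. It had 1140 reads and 0.642 RPKM in replicate 1, and 1045 reads and 0.578 RPKM in replicate 2, a mean of 0.610 ± 0.0450 RPKM (SD, n = 2). By RPKM it ranked 209th of the 272 giant lines, while by reads it ranked 146th. It fell below 1 RPKM with 2185 reads over both libraries, more than any other line of known length under that level. The second longest, ENSORLG00000010066 with 22113 bp, had 2595 reads and 5.18 RPKM in replicate 1, and 2626 reads and 5.15 RPKM in replicate 2. Both pools gave the second line nearly the same level, well above that of the longest line per length.

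The remaining 8 of the 10 longest lines ranged widely. The line of 15513 bp had the highest level of the 10, at 28.7 RPKM (replicate 1) and 27.1 RPKM (replicate 2). It was followed by the line of 21243 bp, at 19.8 and 19.3 RPKM, the line of 16365 bp, at 13.9 and 13.1 RPKM, and the line of 21831 bp, at 12.0 and 12.0 RPKM. The line of 15090 bp stood at 8.67 and 8.27 RPKM. Near 1 RPKM were the line of 20484 bp, at 1.62 and 1.44 RPKM, and the line of 15921 bp, at 1.13 and 1.20 RPKM. The lowest was the line of 14880 bp, at 0.116 and 0.117 RPKM from 39 and 40 reads. Of the 10 longest lines, 8 were above 1 RPKM, the median was 6.82 RPKM, and together they held 4.79% of the reads of all giant lines.

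The most abundant giant line was ENSORLG00000008036, of 6465 bp. It had 35016 reads and 239.1 RPKM in replicate 1, and 35696 reads and 239.6 RPKM in replicate 2, a mean of 239.4 ± 0.324 RPKM (SD, n = 2). Among all 20259 lines it ranked 484th by RPKM and 69th by reads. The next was ENSORLG00000001982, of 7716 bp, with 33834 reads and 193.6 RPKM in replicate 1, and 33606 reads and 189.0 RPKM in replicate 2. The third, a line of 11331 bp, had 140.0 and 142.5 RPKM. With 73134 reads over both libraries it drew more reads than any other giant line and ranked 66th of all lines by reads, but 890th by RPKM. The fourth, of 6408 bp, had 108.4 and 110.9 RPKM. The gaps between these 4 lines were larger than their spread between the pools.

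Below 100 RPKM the levels lay closer together. The fifth to the tenth giant line by level, of 7743, 7443, 7449, 6171, 7241 and 6015 bp, ranged from 94.5 to 77.4 mean RPKM. The fifth, at 96.6 and 92.3 RPKM, and the sixth, at 94.99 and 93.45 RPKM, did not differ beyond their spread between the pools. The line of 13938 bp followed in 11th place with 77.1 and 75.9 RPKM and was the fourth by reads, with 48724. None of the 10 longest lines was among the 10 most abundant or among the 10 with most reads. Unrelated lists of 10 out of 272 lines often share none, so this absence says little about length and level. The lists of the 10 highest by RPKM and the 10 with most reads shared 8 lines.

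**Figure D4:**
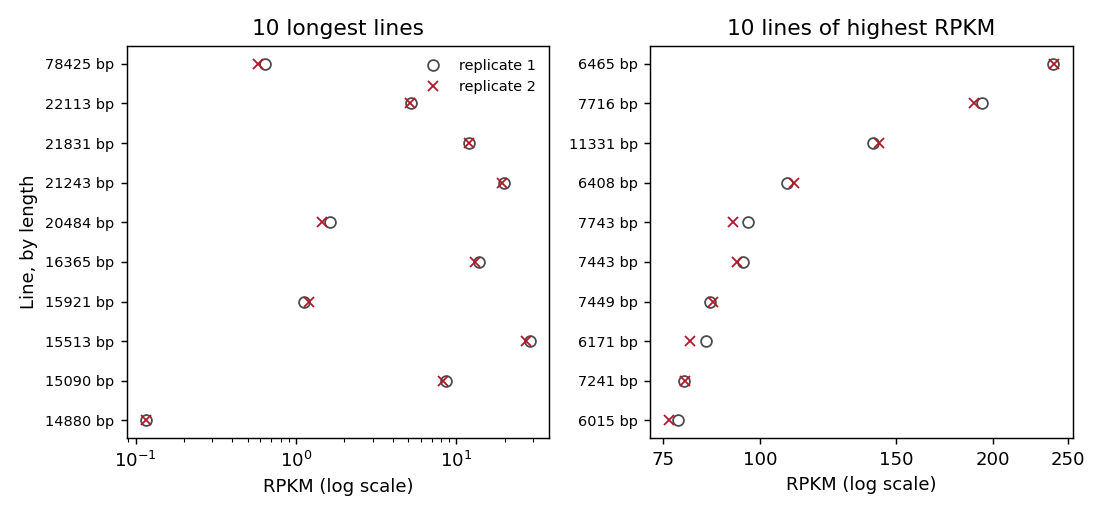
RPKM (x axis, log scale) in replicate 1 (circles) and replicate 2 (crosses) of the 10 longest giant lines (left) and the 10 of highest mean RPKM (right), each named by its length. The longest lines ran from 0.116 to 27.9 mean RPKM and the most abundant from 77.4 to 239.4, with the replicates close together on each line.

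The giant transcripts took a modest part of the reads and a small part of the summed RPKM. They held 799818 reads in replicate 1, or 3.53% of the library total behind the RPKM (95% exact Clopper-Pearson interval 3.52% to 3.54%). In replicate 2 they held 793473 reads, or 3.44% (3.44% to 3.45%). Amplified copies of a molecule are not independent reads, and the intervals therefore span counting error alone. Of the summed RPKM the giant lines made up 0.467% in replicate 1 and 0.450% in replicate 2. For lines of 1000 to 2000 bp the shares were 23.7% and 23.6% of the reads, and 18.3% and 18.0% of the summed RPKM.

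Set against their length, the giant lines drew fewer reads than the shorter class. They made up 10.4% of the summed length of all lines of known length, but 4.94% of the reads of those lines in replicate 1 and 4.83% in replicate 2. The lines of 1000 to 2000 bp made up 31.5% of the summed length, and 33.2% and 33.0% of the reads. Pooled over the class, the giant lines stood at 14.7 (replicate 1) and 14.3 RPKM (replicate 2), against 32.5 and 32.3 RPKM for the lines of 1000 to 2000 bp. The ratio of these pooled levels was further from equality than that of the medians.

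Reads of the giant lines were spread over many of them. The 3 with most reads held 13.3% of the giant reads, the top 10 held 28.1%, the top 50 held 65.6% and the top 100 held 86.4%. Lines from 10 to 100 RPKM, 107 in number, held 73.2% of the giant reads, and the 4 lines above held 15.3%. In the class of 1000 to 2000 bp, lines from 10 to 100 RPKM held 40.3% of the reads and lines from 100 RPKM held 55.5%.

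Giant lines below 1 RPKM were counted with far more reads than lines of 1000 to 2000 bp below that level. Below 1 RPKM in both replicates lay 74 giant lines (27.2%), against 1177 lines of 1000 to 2000 bp (22.8%). These low lines had a median of 102.5 reads over both libraries in the giant class, against 13 reads in the class of 1000 to 2000 bp. At least 100 reads were counted for 39 of the 74, against 0 of the 1177, which had at most 80. The 0 was fixed in advance by the definition of RPKM. Below 1 RPKM a line of up to 2000 bp has at most 45.3 reads in replicate 1 and 46.1 in replicate 2. A level of 1 RPKM takes at least 135.9 reads in replicate 1 for a giant line, against at most 45.3 reads for a line of 1000 to 2000 bp. A line of 6000 bp with 3 reads over both libraries has 0.0109 RPKM, and one of 1000 bp has 0.0657 RPKM.

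The lowest giant lines were close to the limit of counting. Of the 272, 13 lay under 0.1 RPKM (4.78%), against 7.03% of the lines of 1000 to 2000 bp, and 63 lay from 0.1 to 1 RPKM (23.2%), against 17.1%. The lowest was a line of 6102 bp with 1 read in each replicate, at 0.00724 and 0.00711 RPKM. Next came a line of 13449 bp with 4 and 2 reads. Fewer than 10 reads were counted for 6 giant lines (2.21%), against 497 lines of 1000 to 2000 bp (9.65%). Lines without reads have no known length, and the 1551 such lines with 1 transcript are in neither class. A long line at a very low level is more likely to have a read than a short one, so the lower ends of the classes are not strictly comparable. The shares detected and the medians of all length classes carry the same limit.

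Detection of giant lines hardly depended on the pool. Only 2 of the 272 passed 1 RPKM in one replicate and not in the other. The number was 138 of the 5151 lines of 1000 to 2000 bp, and 461 of the 14813 lines of known length. At 1 RPKM a giant line has at least 135.9 reads in replicate 1, against at most 45.3 in the shorter class. The classes thus differ in counting noise at this limit. The 2 giant lines were a line of 6096 bp, at 1.07 (replicate 1) and 0.876 RPKM (replicate 2), and a line of 7065 bp, at 1.02 and 0.878 RPKM. Both were higher in replicate 1.

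The pools gave closely similar levels for the giant lines from 1 RPKM. The 196 whose mean reached 1 RPKM had a median absolute log2 ratio of replicate 2 to replicate 1 of 0.05 on the log2(RPKM + 1) scale, against 0.08 for the lines of 1000 to 2000 bp. None of the 196 differed by more than 0.32 on this log2 scale, against 7.35% of all 14385 lines from 1 RPKM. In counts scaled to the library totals, with no pseudocount, 8 of the 237 giant lines with at least 100 reads differed by more than 0.32 on the log2 scale, against 6.72% of all 13168 such lines. Some giant lines outside both sets, with few reads, were further apart. A line of 8157 bp had 54 and 28 reads in replicates 1 and 2, a log2 ratio of -0.97. A line of 6732 bp had 11 and 24 reads, a log2 ratio of 1.10. With 1 library against 1, no test of a single line is possible.

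This closeness went with the number of reads. Among lines with 1000 to 5000 reads over both libraries, the median absolute log2 count ratio was 0.07 for 77 giant lines and 0.07 for 1534 lines of 1000 to 2000 bp. From 5000 reads it was 0.05 for 97 giant lines and 0.04 for 386 lines of the shorter class, and from 100 to 1000 reads it was 0.16 for giant lines and 0.13 for the shorter class. The squared deviation of the counts from the split given by the library totals was 3.32 ± 0.385 times the sampling variance over 266 giant lines with at least 10 reads, against 2.34 ± 0.0635 over 4654 lines of 1000 to 2000 bp (SE over lines). From 100 to 1000 reads the ratio was 1.56 ± 0.287 for giant lines, against 1.85 ± 0.0592 for the shorter class. It was 2.76 ± 0.412 for giant lines against 2.38 ± 0.0877 for the shorter class from 1000 to 5000 reads. From 5000 reads it was 5.33 ± 0.944 for giant lines against 5.69 ± 0.566 for the shorter class. Within ranges of reads the classes were within about 1 SE of each other. This SE treats lines of the same 2 libraries as independent. It therefore does not measure how far the classes would differ in other libraries.

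A larger share of the giant lines than of all lines was lower in replicate 2, by a small amount. In counts scaled to the library totals, 169 of the 237 giant lines with at least 100 reads (71.3%) were lower in replicate 2, against 54.4% of all 13168 lines with as many reads. The median log2 ratio of replicate 2 to replicate 1 was -0.05 for the giant lines (interquartile range -0.10 to 0.01), a ratio of 0.969, against -0.02 for the lines of 1000 to 2000 bp and -0.01 for all lines. With DESeq2 size factors, which put the median of all lines near 0, 65.0% of the giant lines were lower in replicate 2, against 48.5% of all lines. The size of the shift was below the median absolute log2 ratio of these giant lines, 0.065, a measure that itself contains the shift. For giant lines from 5000 reads the 2 were nearly equal, with a median of -0.0449 and a median absolute log2 ratio of 0.0455.

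Over the lines of known length the shift broadly went with length, though not in a steady order. Median log2 ratios of replicate 2 to replicate 1 were 0.02 under 500 bp, 0.01 from 500 bp, -0.02 from 1000 bp, -0.03 from 2000 bp, -0.02 from 3000 bp, -0.03 from 4000 bp, -0.05 from 5000 bp and -0.05 for the giant lines. The share lower in replicate 2 was 42.8%, 48.3%, 55.5%, 61.9%, 59.2%, 64.7%, 75.2% and 71.3% in the same order. Among the giant lines it was 70.2% from 6000 bp, 70.0% from 7000 bp, 62.2% from 8000 bp, 78.7% from 10000 bp and 8 of 9 lines from 15000 bp. A lower value in replicate 2 was thus not particular to the giant lines, and it stood at nearly the same share in the class just below them.

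**Figure D5:**
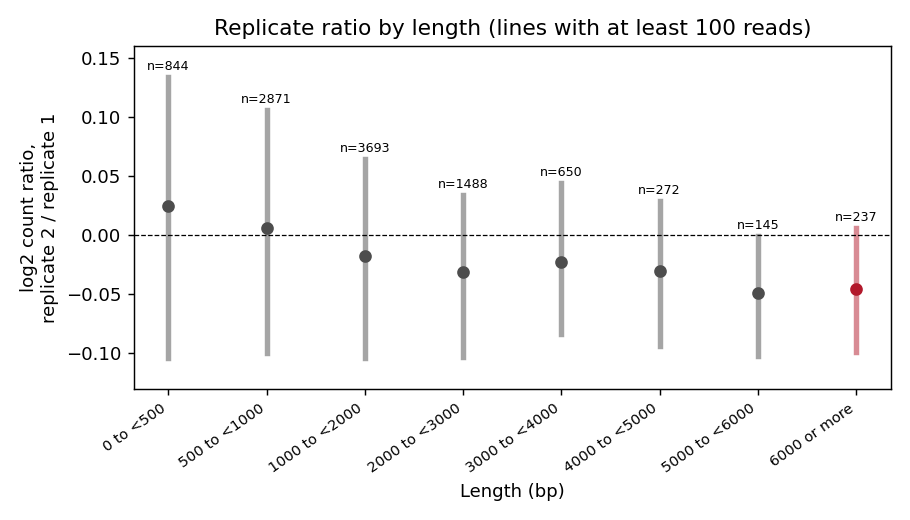
Log2 ratio of counts scaled to the library totals, replicate 2 over replicate 1 (y axis), by length class (x axis, bp), for lines with at least 100 reads, with the median (point) and the 25th to 75th percentile (bar), n lines above each bar and the giant lines in red. The median passed from 0.02 in the shortest class to -0.05 in the giant lines, and the bars of all classes overlapped.

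The shift of the giant lines was also present among lines of like read number and, from 1 RPKM, of like level. From 100 to 1000 reads, 66.7% of 63 giant lines were lower in replicate 2, against 54.8% of 1774 lines of 1000 to 2000 bp. From 1000 to 5000 reads the share was 68.8% of giant lines, against 55.5% of the shorter class, and from 5000 reads it was 76.3% of giant lines, against 57.8%. From 1 to 10 RPKM it was 72.9% of 85 giant lines and 54.6% of 1250 lines of the shorter class. From 10 to 100 RPKM it was 76.6% of 107 giant lines and 56.1% of 2160 lines of the shorter class. From 0.1 to 1 RPKM it was 58.5% of 41 giant lines with at least 100 reads, with 0 such lines in the shorter class. At like RPKM giant lines hold more reads and varied less, so shares are less comparable there than medians. Median log2 ratios were -0.051 for giant lines and -0.025 for the shorter class from 1 to 10 RPKM. From 10 to 100 RPKM they were -0.045 for giant lines and -0.017 for the shorter class. With 1 library a replicate, a property of a pool and a property of its library preparation cannot be told apart.

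The largest differences of single giant lines between the pools were in lines with few reads. The 5 with the largest absolute log2 count ratio, among those with at least 100 reads, had 157 to 700 reads over both libraries. A line of 8877 bp had 64 and 93 reads in replicates 1 and 2, a log2 ratio of 0.51. A line of 13002 bp had 396 and 304 reads, a log2 ratio of -0.41, and a line of 6294 bp had 256 and 200, a log2 ratio of -0.38. The other two had log2 ratios of 0.38 and -0.35. Of the 10 most abundant giant lines, 5 were lower in replicate 2, and of the 10 longest, 8 were.

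In the deposited order, 2 pairs of giant lines were adjacent. In the first, lines of 6249 and 6093 bp had 0.0210 and 2.37 mean RPKM. In the second, lines of 6966 and 6886 bp had 9.50 and 27.4 mean RPKM. Levels within both pairs differed by more than their spread between the pools.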

How the data were processed

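RNA from 2 pools of stage 24 medaka embryos was sequenced on an Illumina instrument. The only tool in the submitters' processing notes is TopHat, without its version, which aligns reads across splice sites. The counting, its use of strand, the genome build and the annotation are each not given in the sources used here. Values of overlapping antisense genes are thus uncertain. Each gene line carries the authors' raw read count and RPKM, as deposited, per the file headers. The authors' counts are whole numbers, and the authors' RPKM is that count per kilobase of a length and per 1000000 reads.

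Lines whose gene or transcript cell joins several identifiers were left out. Length in kilobases was the count per 1000000 library reads divided by the RPKM, rounded to the base pair, with library totals of 22650004 and 23045699 reads, from replicate 1 if it had reads. All 272 lay within 0.001 bp of a whole number. The limit of 6000 bp, the class of 1000 to 2000 bp and the lines named (the longest, the most abundant, those with most reads and those with the largest replicate ratio) were chosen with earlier results of these data known. Levels are deposited RPKM. Replicates were compared as log2(RPKM + 1), which understates changes of low lines, or as counts over library totals, and the squared count difference was divided by its binomial variance. The count ratio and the variance ratio were checked on simulated counts. These held sampling noise alone, without the spread between pools of the real counts, so only the formulas were checked. Alternative scalings used edgeR 4.0.16 and DESeq2 1.42.0 in R 4.3.3. The rest was done in Python 3.11.15 with pandas 2.3.3, numpy 2.4.6, scipy 1.17.1 and matplotlib 3.10.9. The median giant line had 2622.5 reads in the replicates together. No comparison of groups was possible with 1 group.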

Additional observations from a re-analysis of the deposited data

How the results depend on the processing

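Of 58 recomputed values, 30 stayed within the replicate spread, the error or 1.5 times the reported count. With length minimums of 5000, 8000 and 10000 bp there were 439, 101 and 62 lines in place of 272, holding 5.003%, 1.34% and 0.978% of the reads in place of 3.49%. Leaving out the 88 most abundant lines of the tables from the total gave 4.51%, and leaving out a replicate gave 3.44% to 3.53%. The median of giant lines over that of lines of 1000 to 2000 bp, 0.824, was 0.904, 0.603 and 0.585 with those length minimums, 0.726 against lines of 2000 to 6000 bp, 0.785 from a mean of 1 RPKM, 0.692 from 10 reads and 0.794 to 0.837 with a replicate left out. The share detected, 72.1%, was 78.7% from 0.5 RPKM, 55.9% from 5 RPKM, 96.7% with 10 reads in each replicate (84.1% for lines of 1000 to 2000 bp, which turns the direction against that class) and 72.1% to 72.8% with a replicate left out. From 50 RPKM 8.09% of giant lines qualified and from 200 RPKM 0.368%, against 12.5% and 2.27% of lines of 1000 to 2000 bp. The median absolute log2 ratio of 0.0475 was 0.0550 with a pseudocount of 0.1 and 0.0688 in counts from 20 reads. The variance ratio was 4.03 from 500 reads. Among the 196 giant lines from a mean of 1 RPKM, 3 were over 0.32 apart on the log2 scale with a pseudocount of 0.1. In counts from 20 reads the number was also 3, in place of 0. For lines of 1000 to 2000 bp from the same level the shares were 8.24% and 8.72%, in place of 4.30%. The median log2 count ratio of -0.0456 was -0.0319 with TMM and -0.0272 with DESeq2 scaling (0.0048 for all lines, in place of -0.0136), and the share lower in replicate 2 was 65.0% with DESeq2 scaling and 80.4% from 10000 bp. Alternatives for that ratio and share were chosen after seeing the data. Adding lines with several transcripts and a whole length gave 301 members. The cause of these changes was not tested. No paired analysis was possible because the series has a single group. The lowest members are limited by depth, as 6 had under 10 reads.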
